A study of Homo sapiens with 14 samples.

Results

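Chromatin accessibility was described here around 10 genes of the NF-kB pathway in multiple myeloma (MM) cells. They were the 5 subunits NFKB1, REL, RELA, NFKB2 and RELB, the inhibitor NFKBIA, and the 4 regulators TRAF3, BIRC3, CYLD and MAP3K14. Members were the reference peaks that overlapped the body of one of these genes or 100 kb on either side of it, with gene positions from GENCODE release 44 on the hg38 build. The rule found 151 of the 72802 reference peaks of MM.1S and 145 of the 79969 reference peaks of RPMI8226, around 10 of 20033 protein-coding genes.

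MM.1S and RPMI8226 are established human MM cell lines. Omni-ATAC, which marks open chromatin by the insertions of a transposase, was done on cells kept in monoculture (MONO) and on cells cultured with HS5, a human bone marrow stromal line, either above a transwell membrane (TSW) or in contact with the stromal cells in the lower chamber (CO). MM.1S had 3 MONO, 3 TSW and 3 CO libraries, and RPMI8226 had 1 MONO, 2 TSW and 2 CO libraries, all from MM cells sorted by surface markers. By the study's account the sort left a small share of HS5 cells in CO. Each line had 1 list of reference peaks over all its libraries, with a position and a whole number for each peak. This number ran from 3 to 9 in MM.1S and from 3 to 5 in RPMI8226 and was read as support, the number of libraries of the line in which the peak was called. It does not say which libraries those were. MONO, TSW and CO could therefore not be compared, no test between conditions was possible, and all values below are descriptions of 2 lists. RNA was not measured in these files.

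The cell type labels were checked with marker genes. By the study's account the cells were sorted for CD38 and against the product of THY1, so these 2 markers were not independent of the sort. A peak at an own promoter, within 2500 bp of any annotated start of the gene, was present for 9 of 9 plasma cell markers in both lines and for 5 of 10 stromal markers in both lines. Such a peak was present for 76.8% of protein-coding genes in MM.1S and 71.8% in RPMI8226. Of the stromal markers, THY1, COL3A1, LUM, POSTN and FAP had no promoter peak in either list, while COL1A1, PDGFRB and NT5E had one in every library of both lines. Open chromatin at a start site is not expression, and the part of HS5 cells in any peak was not tested.

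NF-kB factors are dimers of 5 related subunits that bind a short DNA element called kappa B. In the canonical route the inhibitor IκBα, made by NFKBIA, holds dimers of RELA or REL with the product of NFKB1 in the cytoplasm until it is degraded. In the noncanonical route the kinase NIK, made by MAP3K14, drives the processing of the NFKB2 precursor and frees its dimers with RELB, while TRAF3 and the ubiquitin ligase BIRC3 keep NIK low in resting cells. CYLD is a deubiquitinase that dampens signalling, and losses of TRAF3, CYLD and BIRC3 are well known in MM. Several of these genes are themselves classical NF-kB targets, which is why kappa B elements near them were read from the reference sequence.

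The kappa B consensus of 10 bases (matched on both strands) occurred in the 250 bases upstream of the main start site in 8 of the 10 genes, against 5.91% of the 19061 protein-coding promoters scanned. RELA and MAP3K14 had no match. A stricter form, read as GGGA, any base and TTTCC, is a subset of the first and occurred in 5 of 10 (NFKB1, REL, NFKB2, NFKBIA and CYLD), against 0.477% of promoters. It was applied to these upstream windows after the data had been seen, so this contrast is a description. Each of TGACTCA (AP-1), GAAA, any 2 bases and GAAA (ISRE, bound by interferon factors), and CCAC, any base, AGG, any base and GGC (CTCF) occurred in 0 of 10, against 3.06%, 2.83% and 0.294%. The match nearest to the start site is shown for each of the 8 genes, 30 bases from hg38 on the strand of the gene, because these are the sites that lay in the promoter peaks described below. Capitals mark the match, which covers 2 overlapping matches in REL.
NFKB1, chr4:102501300-102501329, plus strand: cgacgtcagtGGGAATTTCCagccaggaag
REL, chr2:60881518-60881547, plus strand: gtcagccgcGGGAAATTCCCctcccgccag
NFKB2, chr10:102395674-102395703, plus strand: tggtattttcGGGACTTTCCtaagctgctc
RELB, chr19:45001395-45001424, plus strand: cggcggcgccGGGGAATTCCgccgccccgc
NFKBIA, chr14:35404811-35404840, minus strand: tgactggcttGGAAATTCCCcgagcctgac
TRAF3, chr14:102777406-102777435, plus strand: cgggcgcgccGGGGATTTCCagcgcgcgag
BIRC3, chr11:102317339-102317368, plus strand: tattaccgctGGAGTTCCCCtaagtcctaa
CYLD, chr16:50741887-50741916, plus strand: ttgacagagcGGAAAGTCCCttcggccggc

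The 8 genes held 12 matches in these upstream windows. All 12 lay inside a reference peak of MM.1S, 11 of them in peaks called in all 9 libraries. In RPMI8226, 11 of 12 lay inside a peak called in all 5 libraries. The exception in both lines was the TRAF3 match, at position -33 from the start site. It lay in an MM.1S peak with support 7 and outside the RPMI8226 peak, which began further downstream. Another TRAF3 match, of the stricter form, lay after the start at chr14:102777529-102777538 and thus outside the upstream window. It was inside the same MM.1S peak and inside the RPMI8226 peak, which had support 5. A match is a description of the letters and not evidence that a factor bound there.

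**Figure D1:**
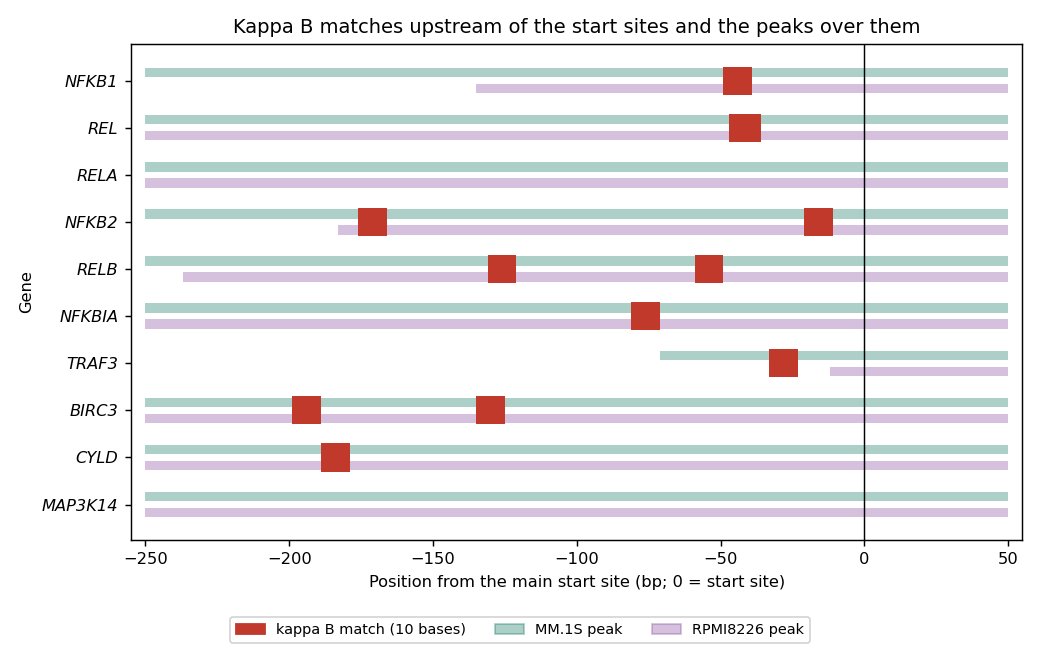
Kappa B matches (red, 10 bases each) from 250 bp upstream to the main start site of each gene (x axis, bp, 0 is the start site), with the spans of MM.1S peaks (green) and RPMI8226 peaks (purple) drawn up to 50 bp downstream. Matches were present in 8 of 10 genes, and the TRAF3 match at -33 was the only one outside a RPMI8226 peak.

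NFKBIA and BIRC3, the genes of an inhibitor and of a regulator of the pathway, are shown with their whole 250 upstream bases, since both windows lay inside the promoter peak in both lines. The NFKBIA window was 59.2% G or C and held 1 match. The BIRC3 window was 52.4% G or C and held 2 matches, at positions -199 and -135 from the start site. Both are given from hg38 on the strand of the gene, with the matches in capitals.
NFKBIA, chr14:35404750-35404999, minus strand: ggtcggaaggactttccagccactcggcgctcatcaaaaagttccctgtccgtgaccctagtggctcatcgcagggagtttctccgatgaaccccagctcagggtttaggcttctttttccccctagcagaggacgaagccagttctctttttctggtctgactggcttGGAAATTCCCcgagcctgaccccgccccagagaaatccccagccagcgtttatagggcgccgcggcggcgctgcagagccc
BIRC3, chr11:102317234-102317483, plus strand: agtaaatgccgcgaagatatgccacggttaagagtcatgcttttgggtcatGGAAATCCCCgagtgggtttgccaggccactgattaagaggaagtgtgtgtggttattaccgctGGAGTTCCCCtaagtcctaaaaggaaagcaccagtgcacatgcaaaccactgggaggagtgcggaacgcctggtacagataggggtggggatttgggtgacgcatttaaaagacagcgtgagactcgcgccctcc

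Reference peaks were present at an own promoter of 10 of 10 genes in MM.1S, against 76.8% of protein-coding genes, and of 10 of 10 in RPMI8226, against 71.8%. Each gene also had at least 1 own promoter peak that was called in every library of the line, against 69.2% of protein-coding genes in MM.1S and 66.5% in RPMI8226. With 10 genes the 95% Wilson interval of such a share reaches down to 72.2%, so the counts cannot be set apart from the share of genes with any promoter peak in MM.1S. Own promoter peaks numbered 20 in MM.1S and 18 in RPMI8226, since several genes have further starts inside the gene. Of these, 13 of 20 were called in all 9 libraries and 17 of 18 in all 5. All 18 of RPMI8226 overlapped a peak of MM.1S, and 15 of 20 of MM.1S overlapped a peak of RPMI8226. Among the 5 that did not, 3 were at TRAF3, and NFKB1 and MAP3K14 had 1 each.

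The remaining peaks of the windows were at promoters of neighbouring genes or distal, outside 2500 bp of any annotated start. In MM.1S, 74 peaks were at promoters of other genes and 57 were distal, which is a distal share of 37.7% (30.4 to 45.7, Wilson 95% interval) against 60.8% of the whole list. RPMI8226 had 71 and 56, a distal share of 38.6% (31.1 to 46.7) against 64% of its list. These intervals cover counting error over peaks only, and peaks of 1 locus are not replicates. The windows were drawn around genes and hold gene starts by construction, whereas the list covers the whole genome. The distal share in the same windows of other protein-coding genes was not computed. The neighbour promoters were unevenly spread, with 49 of 74 in MM.1S and 46 of 71 in RPMI8226 in the windows of RELA, RELB and MAP3K14.

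**Figure D2:**
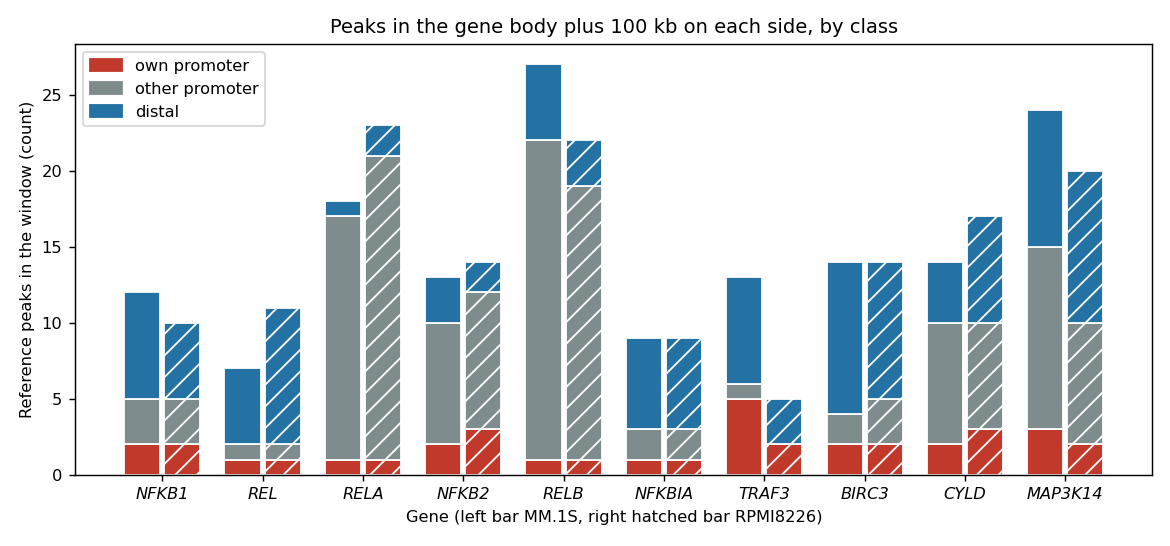
Number of reference peaks (y axis) in the gene body plus 100 kb on each side of each gene, with MM.1S in the left bar and RPMI8226 in the right hatched bar, split into own promoter (red), promoter of another gene (grey) and distal (blue). RELA and RELB were mostly grey, BIRC3 mostly blue, and TRAF3 had 13 peaks in MM.1S and 5 in RPMI8226.

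Windows differed in length, so the number of peaks was also set on a scale of peaks per 100 kb and ranked among the same windows of all protein-coding genes. The middle protein-coding gene had 4.05 peaks per 100 kb in MM.1S and 4.36 in RPMI8226. The median percentile of the 10 genes was 68.6 in MM.1S and 71.2 in RPMI8226. RELB was the densest window in MM.1S with 11.41 peaks per 100 kb, at percentile 97.2, and RELA the densest in RPMI8226 with 10.98, at percentile 95.8. REL was the sparsest in MM.1S with 2.8, at percentile 31.9, and TRAF3 the sparsest in RPMI8226 with 1.5, at percentile 13.7. The TRAF3 window in MM.1S had 3.89 and was at percentile 47.7.

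More of the peaks near the NF-kB genes were found in every library than in the list as a whole in MM.1S, with 95 of 151 or 62.9% (55 to 70.2) against 52%. In RPMI8226 the share was 103 of 145 or 71% (63.2 to 77.8) against 64.1%, and its interval held the share of the list. Within classes the gap was smaller for promoters, where 67% of the peaks near the genes were called in all 9 libraries against 67.5% of all promoter peaks of MM.1S, and 75.3% against 74.2% in RPMI8226. Among distal peaks it was 56.1% (43.3 to 68.2) against 42% in MM.1S and 64.3% (51.2 to 75.5) against 58.5% in RPMI8226. The low end of support was also counted, since a peak with support of at most 6 in MM.1S, or under 5 in RPMI8226, could be missing from all MONO libraries. These were 24 of 151 peaks or 15.9% (10.9 to 22.6) in MM.1S against 27.7% of the list, and 42 of 145 or 29% (22.2 to 36.8) in RPMI8226 against 35.9%. NFKB1 had 0 of 12 such peaks and CYLD 0 of 14 in MM.1S, but 3 of 10 and 6 of 17 in RPMI8226. RELB had 5 of 27 and MAP3K14 5 of 24 in MM.1S, and 7 of 22 and 6 of 20 in RPMI8226. NFKBIA, with fewer peaks, had 3 of 9 in MM.1S and 2 of 9 in RPMI8226.

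Peaks with at least 1 bp in common between the lines were called shared. Of the MM.1S peaks near the genes, 112 of 151 or 74.2% (66.7 to 80.5) were shared, against 64.6% of the list. Of the RPMI8226 peaks, 119 of 145 or 82.1% (75 to 87.5) were shared, against 62%. At promoters the shares were 79.8% (70.6 to 86.7) against 71.8% in MM.1S and 92.1% (84.6 to 96.1) against 76.6% in RPMI8226. At distal peaks they were 64.9% (51.9 to 76) against 60% in MM.1S, and 66.1% (53 to 77.1) against 53.7% in RPMI8226, and both distal intervals held the share of the list. Peaks that were shared and called in all 9 and all 5 libraries are called constant below. They were 69 of 151 or 45.7% (38 to 53.6) against 37.3% in MM.1S and 72 of 145 or 49.7% (41.6 to 57.7) against 35.6% in RPMI8226. Constant distal peaks numbered 19 of 57 in MM.1S and 19 of 56 in RPMI8226, or 33.3% (22.5 to 46.3) against 27.4% and 33.9% (22.9 to 47) against 24.5%.

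**Figure D3:**
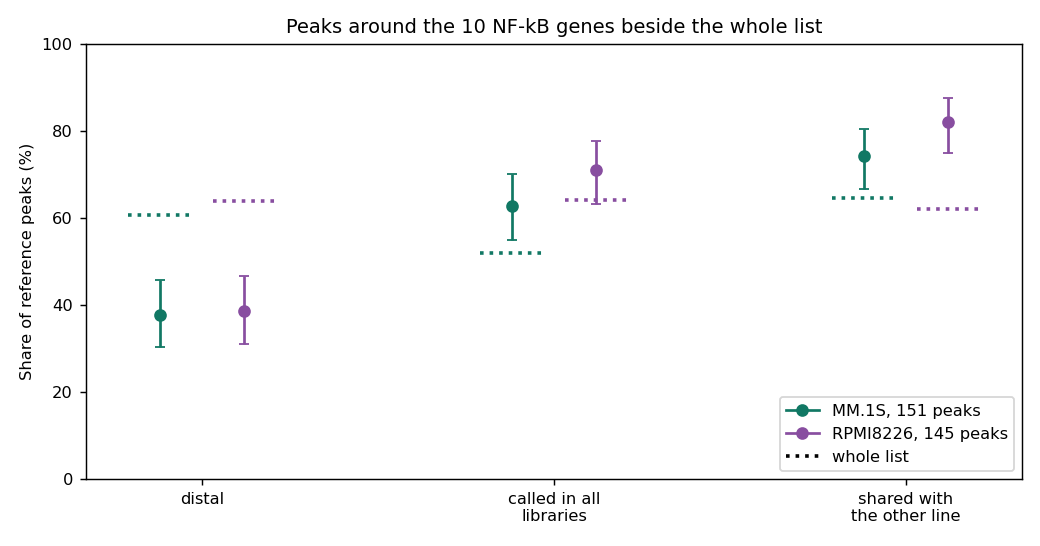
Shares of reference peaks (y axis, %) near the 10 genes that were distal, called in every library of the line, or shared with the other line, for MM.1S (green, 151 peaks) and RPMI8226 (purple, 145 peaks). Points are shares with Wilson 95% intervals, which cover counting error only, and dotted lines are the whole lists. The distal share near the genes lay below the list in both lines (37.7% against 60.8% and 38.6% against 64%), for windows that hold gene starts by construction.

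Peaks of MM.1S were wider than those of RPMI8226 over the whole lists, with medians of 536 and 362 bp. For promoter peaks the medians were 729 and 474 bp, so widths in the accounts below differ between the lists in general. The 3 subunits of the canonical route came first. NFKB1, which encodes the precursor of a subunit of the classical dimer, lies on chromosome 4 (102501330 to 102617302, plus strand). Its main start was covered by 1 wide peak of 2006 bp with support 9 in MM.1S and by 2 peaks of 263 and 925 bp with support 5 in RPMI8226. The window held 12 peaks in MM.1S and 10 in RPMI8226, with 7 and 8 shared. At the end of the gene the lines differed: 3 MM.1S peaks, with midpoints 85.2, 111.7 and 115.3 kb after the start and support 8, 9 and 9, lay in a stretch of 55.7 kb without any RPMI8226 peak. Of the 79936 stretches between neighbouring RPMI8226 peaks, 1961 or 2.45% held as many MM.1S peaks. Directly after the stretch of 55.7 kb both lines had a constant distal peak at 119.4 kb, with widths of 615 and 511 bp. RPMI8226 in turn had a line-only distal peak of 481 bp in all 5 libraries 7.4 kb upstream of the start, and MM.1S had one of 691 bp in all 9 libraries 23 kb upstream.

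REL, the gene of the c-Rel subunit found mainly in lymphoid cells, lies on chromosome 2 (60881491 to 60931612, plus strand). A single promoter peak covered its start, with 963 bp and support 9 in MM.1S and 829 bp and support 5 in RPMI8226. No peak of either line lay in the gene beyond it. Both lines had 3 shared distal peaks, 40.5 kb and 7.9 kb upstream and 111.6 kb downstream of the start, with support 9, 8 and 9 in MM.1S and 5, 5 and 5 in RPMI8226. RPMI8226 had 6 further line-only distal peaks, 2 of them in all 5 libraries (377 bp at 19.7 kb upstream and 280 bp at 103.3 kb downstream). MM.1S had 2, with support 6 and 3. The REL window thus had 7 peaks in MM.1S and 11 in RPMI8226, with 1 own promoter peak in each.

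RELA, which encodes the main activating subunit p65, lies among neighbours with promoter peaks on chromosome 11 (65653599 to 65663090, minus strand). Its promoter peak was almost the same in the 2 lines, 1213 bp with support 9 and 1210 bp with support 5, and had no kappa B match in it. Of the 18 peaks of the window in MM.1S, 18 were shared, and of the 23 in RPMI8226, 17. Nearly all were at promoters of neighbours such as SIPA1, MAP3K11, EHBP1L1 and KAT5. The only constant distal peak, 43.7 kb upstream, was 511 bp in MM.1S and 344 bp in RPMI8226, and a kappa B match was in the part that the MM.1S peak alone covered. A RPMI8226-only distal peak of 451 bp with support 4 lay 9.3 kb upstream and held an AP-1 match.

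NFKB2 and RELB make the dimer of the noncanonical route. NFKB2 (chromosome 10, 102394110 to 102402524, plus strand) had the most kappa B matches at its promoter. Counting overlapping positions, 8 lay in the 1942 bp MM.1S peak with support 9, and 7 in the 2 RPMI8226 peaks of 994 and 270 bp with support 5. A second own promoter peak inside the gene, at 3.9 kb, had 556 bp and support 9 in MM.1S and 552 bp and support 5 in RPMI8226. All 14 RPMI8226 peaks of the window were shared, and 11 of the 13 of MM.1S. The exceptions in MM.1S had support 5 and 4. No distal peak lay inside this short gene.

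RELB (chromosome 19, 45001461 to 45038192, plus strand) had 27 peaks in its window in MM.1S, the most of the 10 genes, and 22 in RPMI8226, and again all 22 of RPMI8226 were shared. The promoter peak was 1230 bp with support 9 in MM.1S and 1169 bp with support 5 in RPMI8226. Inside the gene, 15.2 kb after the start, lay a constant intronic peak of 1251 bp in MM.1S and 934 bp in RPMI8226 with 2 kappa B matches in each line. It was the widest constant distal peak near any of the 10 genes in MM.1S and in RPMI8226. Downstream of RELB, MM.1S had 2 distal peaks in all 9 libraries that RPMI8226 lacked, 825 bp at 103.4 kb and 2092 bp at 116.7 kb, of which the second was the widest line-only distal peak of the set and held 2 kappa B matches. Both lie within MARK4 and PPP1R37, so they cannot be assigned to RELB from position alone.

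NFKBIA, the gene of the inhibitor IκBα and a well known target of NF-kB, lies on chromosome 14 (35401079 to 35404749, minus strand) with few genes nearby. One peak covered the start, with 1470 bp and support 9 in MM.1S and 1567 bp and support 5 in RPMI8226, and had 2 kappa B matches in both lines. Each line had 9 peaks in the window, of which 7 were shared. Among the 6 distal peaks of each line, 4 were shared. The widest constant one lay 63 kb downstream of the start, with 624 bp in MM.1S and 746 bp in RPMI8226, and also held 2 kappa B match positions. Upstream, a pair of shared peaks lay 11.6 and 12.3 kb before the start, with support 7 and 9 in MM.1S and 4 and 5 in RPMI8226. A RPMI8226-only peak of 377 bp in all 5 libraries lay 75.8 kb upstream, in a stretch of 110.8 kb without a peak in MM.1S. That stretch held 2 RPMI8226 peaks, and 6262 or 8.61% of the 72771 stretches between MM.1S peaks held as many.

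The kappa B matches of the widest constant distal peaks, in the RELB intron and downstream of NFKBIA, are shown because both have the stricter form of the consensus and lay inside peaks called in every library of both lines. Each is 60 bases of hg38 on the strand of the gene, with the match in capitals. Neither lay in the central 200 bp of its peak.
RELB intron, chr19:45016499-45016558, plus strand: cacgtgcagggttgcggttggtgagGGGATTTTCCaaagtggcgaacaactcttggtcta
NFKBIA downstream, chr14:35341417-35341476, minus strand: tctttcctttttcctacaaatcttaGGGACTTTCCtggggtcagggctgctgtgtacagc

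**Figure D4:**
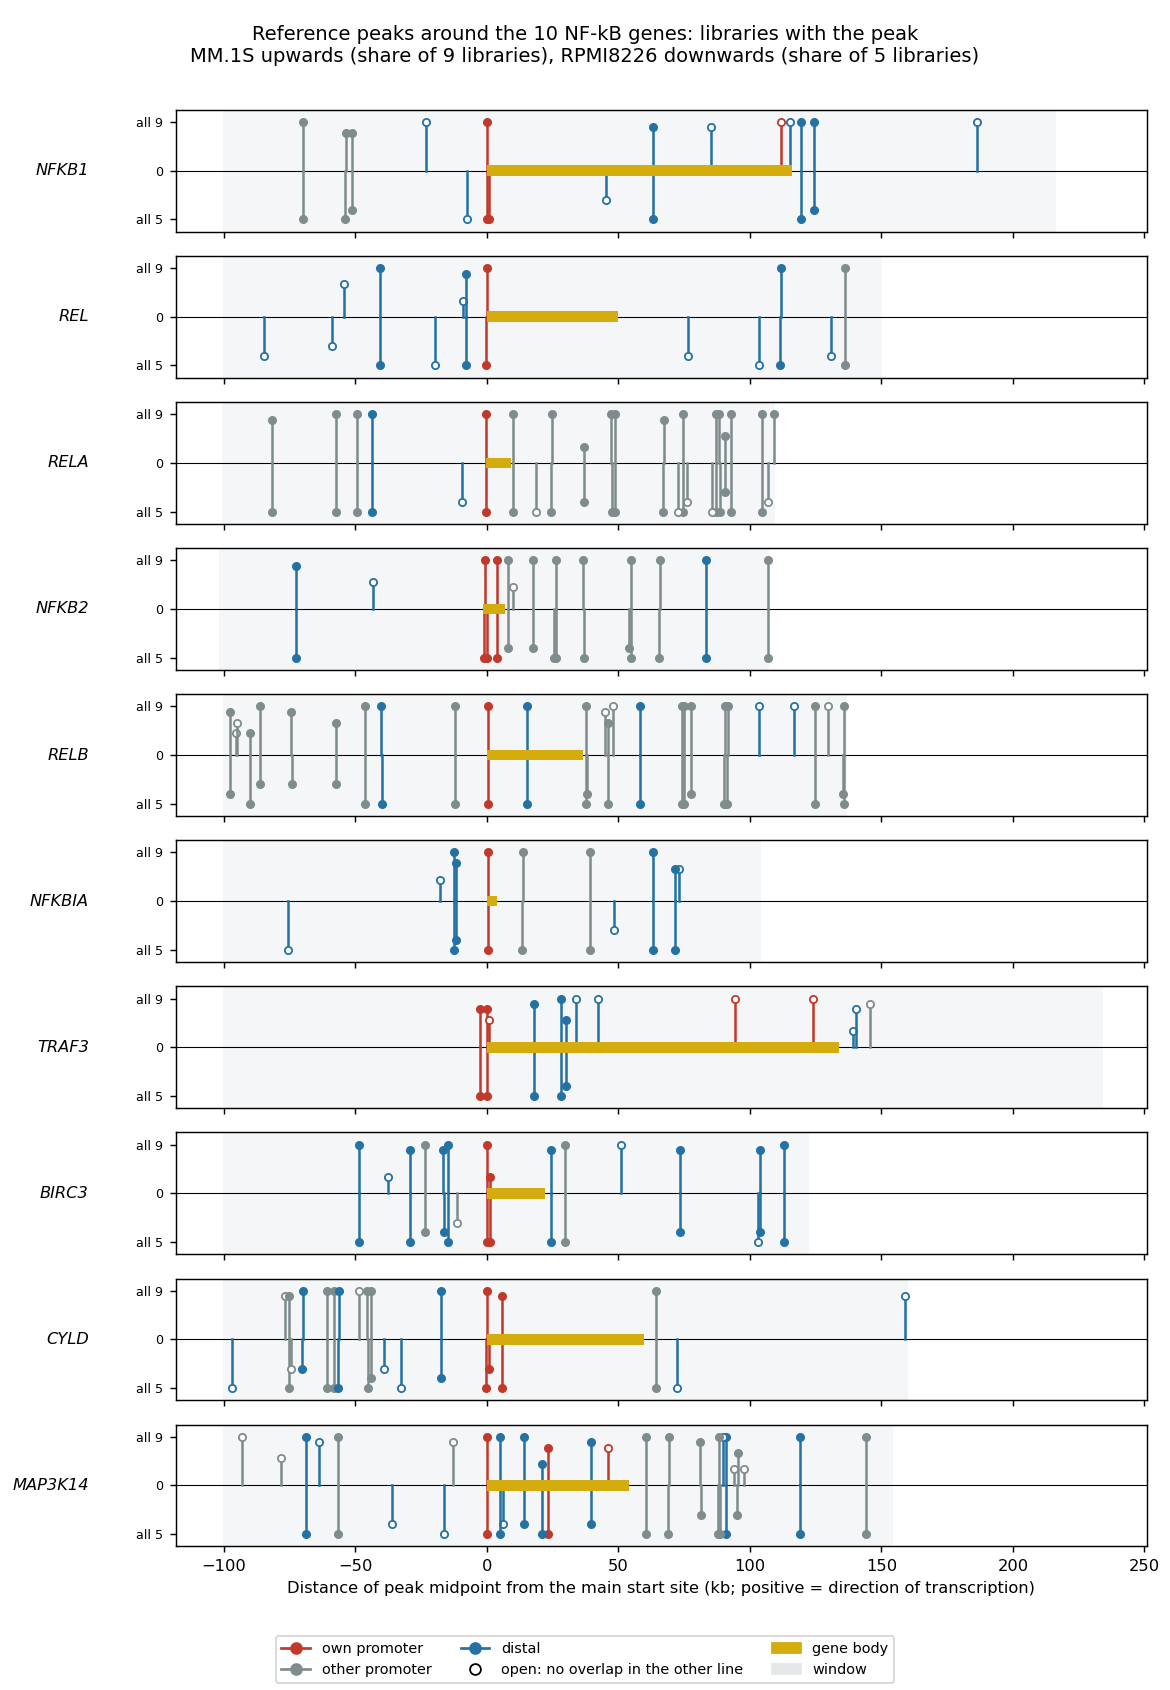
Each stem is a reference peak at the distance of its midpoint from the main start site (x axis, kb, positive in the direction of transcription), with MM.1S upwards as a share of 9 libraries and RPMI8226 downwards as a share of 5. Red is own promoter, grey the promoter of another gene, blue distal, open circles have no overlap in the other line, yellow is the gene body and light grey the window; every gene had a red stem at full height in both lines, in TRAF3 of MM.1S only at starts inside the gene.

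TRAF3, the adaptor that brings NIK to its ligases, showed the largest difference in peak number between the lines, with 13 peaks in MM.1S and 5 in RPMI8226 (chromosome 14, 102777449 to 102911500, plus strand). At the main start it was MM.1S that had the lower support. Its 3 peaks there had support 7, 7 and 5, with widths of 377, 273 and 845 bp, whereas the 2 RPMI8226 peaks had support 5 and 5, with widths of 539 and 183 bp. TRAF3 was the only one of the 10 genes without a main-start peak in every library in one of the lines. In the introns that follow 3 distal peaks were shared, with midpoints 17.9, 28.3 and 30.2 kb after the start in MM.1S and support 8, 9 and 5 there, against 5, 5 and 4 in RPMI8226. All 5 RPMI8226 peaks of the window thus lay in its first part.

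Beyond these, RPMI8226 had no reference peak from 102807943 to 103045491 on chromosome 14, a stretch of 237.5 kb that covered 103.6 kb of TRAF3 and continued past the end of the gene. MM.1S had 7 peaks in it, of which 4 were called in all 9 libraries. Those 4 lay in TRAF3, with widths of 795, 1181, 1236 and 1246 bp and midpoints 34, 42.3, 94.3 and 124.2 kb after the start, and the latter pair were at annotated internal starts. The other 3 lay past the gene with support 3, 7 and 8, the last at the promoter of AMN. Among the 79936 stretches between neighbouring RPMI8226 peaks, 123 or 0.154% held as many MM.1S peaks. Stretches with at least 5 peaks of the other list made up 0.543% in RPMI8226 and 0.962% in MM.1S. This stretch was looked at after the counts had been seen, so its rank is a description. The lists do not tell closed chromatin from a region with few or no reads, and which of these applied was not tested.

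**Figure D5:**
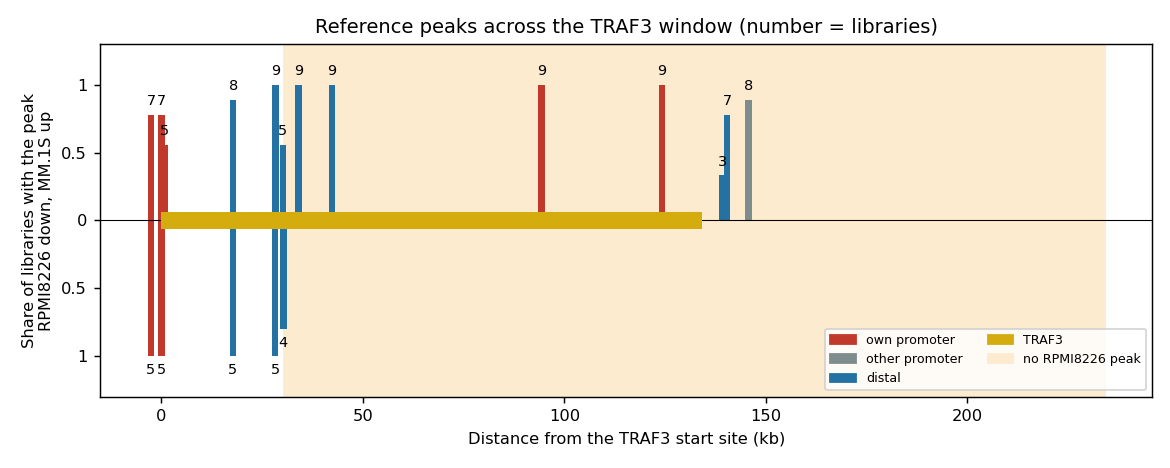
Reference peaks across the TRAF3 window by distance from the start site (x axis, kb), drawn as the share of the libraries of the line with the peak (y axis, MM.1S up, RPMI8226 down), with the number of libraries printed at each bar. Beyond its peak at 30.3 kb RPMI8226 had none (shaded to the end of the window), while MM.1S had 7, of which 4 were called in all 9 libraries.

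BIRC3, a ubiquitin ligase that targets NIK and is itself induced by NF-kB, lies on chromosome 11 (102317484 to 102339403, plus strand). Both lines had 14 peaks in its window, and 12 of 14 were shared in each. The main promoter peak was 755 bp with support 9 in MM.1S and 645 bp with support 5 in RPMI8226, with 2 kappa B matches in both. A smaller own promoter peak 1.2 kb after the start, with an AP-1 match, had support 3 in MM.1S and 5 in RPMI8226. Distal peaks numbered 10 and 9, of which 8 were shared in each line, and spread from 48.7 kb upstream to 113.1 kb downstream, where the widest constant one had 758 and 781 bp. The neighbour BIRC2, a related ligase, had a promoter peak in every library of both lines. Line-only peaks in every library were 1 of 381 bp at 51.1 kb in MM.1S and 1 of 529 bp at 103.1 kb in RPMI8226.

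CYLD (chromosome 16, 50742050 to 50801935, plus strand) had 14 peaks in MM.1S and 17 in RPMI8226, with 11 and 12 shared. Its main start was covered by 1 peak of 1259 bp with support 9 in MM.1S and by 2 peaks of 809 and 189 bp with support 5 and 3 in RPMI8226. A second own promoter peak at 5.6 kb had support 8 in MM.1S and 5 in RPMI8226. The rest of the gene had no peak in either line. Upstream of it 3 distal peaks were shared, the widest constant one at 56.4 kb with 809 and 578 bp. RPMI8226 had 4 line-only distal peaks, 3 of them in all 5 libraries, including one of 635 bp at 72.4 kb downstream. MM.1S had 1, with support 8, at 158.9 kb downstream.

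MAP3K14, the gene of NIK, had 24 peaks in MM.1S and 20 in RPMI8226, with 16 and 17 shared (chromosome 17, 45263119 to 45317029, minus strand). The main promoter peak was 1298 bp with support 9 in MM.1S and 1234 bp with support 5 in RPMI8226, with no kappa B match. The gene body held 4 distal intronic peaks in MM.1S and 5 in RPMI8226, and 4 of them were shared. AP-1 matches in the central 200 bp were found in 4 peaks of the gene body in MM.1S and 3 in RPMI8226. The intronic peak at 4.8 kb, with support 9 and 5, and the one at 20.9 kb, with support 4 and 5, held one in both lines, and the peak at the internal start at 23.4 kb, with support 7 and 5, also did. The AP-1 match of the intronic peak at 14.1 kb was in the central part in MM.1S only, where support was 9 against 4 in RPMI8226. A constant distal peak at 90.8 kb downstream, with 554 and 533 bp, held 2 overlapping kappa B matches. It lay within FMNL1, so it cannot be assigned to MAP3K14 from position alone.

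Across the whole set the motifs were read against the lists. In the central 200 bp of distal peaks a kappa B match was present in 2 of 57 in MM.1S, or 3.51% (0.968 to 11.9), against 4.32% of all distal peaks, and in 0 of 56 in RPMI8226 (up to 6.42%) against 5.37%. Both central shares were below that of the list, but both intervals held it, so a higher share near the genes could not be told from a lower one. Scanned over the whole peak, 9 of 57 or 15.8% (8.54 to 27.4) in MM.1S held one against 10%, and 3 of 56 or 5.36% (1.84 to 14.6) in RPMI8226 against 9.18%. At promoters of the windows, neighbours included, 27 of 94 peaks or 28.7% (20.6 to 38.6) held a match anywhere in MM.1S against 18.8% of promoter peaks, and 22 of 89 or 24.7% (16.9 to 34.6) in RPMI8226 against 13.8%. In the central 200 bp of these promoter peaks, the looser consensus was present in 8 of 94 or 8.51% (4.38 to 15.9) in MM.1S against 5.02%. In RPMI8226 it was present in 10 of 89 or 11.2% (6.22 to 19.5) against 5.46%. Only the MM.1S interval held the share of the list. The stricter form was there in 4 of 94 or 4.26% (1.67 to 10.4) in MM.1S against 0.453%, and in 4 of 89 or 4.49% (1.76 to 11) in RPMI8226 against 0.601%. Of these peaks, 2 in MM.1S and 4 in RPMI8226 were own promoter peaks. Of the own promoter peaks, 10 of 20 and 9 of 18 held a match to the looser consensus anywhere in the peak, at 8 of the 10 genes in each line. Wider peaks have more room for a match, and the own promoter peaks had a median width of 904 bp in MM.1S and 598.5 bp in RPMI8226, against 729 and 474 bp for all promoter peaks. AP-1 was present in 7 of 57 distal peaks or 12.3% (6.08 to 23.2) in MM.1S against 9.17%, and in 9 of 56 or 16.1% (8.69 to 27.8) in RPMI8226 against 17%. ISRE was present in 5 of 57 or 8.77% (3.81 to 18.9) in MM.1S against 8.64%, and in 0 of 56 (up to 6.42%) in RPMI8226 against 7.47%. CTCF was present in 1 of 57 or 1.75% (0.31 to 9.29) in MM.1S against 1.81%, and in 1 of 56 or 1.79% (0.316 to 9.45) in RPMI8226 against 1.35%. At promoters of the windows, AP-1 was in the central part of 9 of 94 peaks or 9.57% (5.12 to 17.2) in MM.1S against 4.69%. In RPMI8226 it was in 6 of 89 or 6.74% (3.13 to 13.9) against 9.34%. Own promoter peaks held it in 4 of 20 in MM.1S and 2 of 18 in RPMI8226.

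Other genes of the pathway, a list of 27 receptors, adaptors, kinases, inhibitors and deubiquitinases, were read in the same way. An own promoter peak was present for 27 of 27 in MM.1S and 25 of 27 in RPMI8226, and one in every library for 25 and 24. Of all protein-coding genes, 76.8% in MM.1S and 71.8% in RPMI8226 had an own promoter peak, and 69.2% and 66.5% one in every library. The 2 genes without a promoter peak in RPMI8226 were LTBR, the lymphotoxin beta receptor, and TNFRSF13C, the receptor for the B cell survival factor BAFF, both of which act upstream of the noncanonical route. In MM.1S their best support was 8 each. CD40, another receptor of this route, had best support 9 in MM.1S and 3 in RPMI8226, which was chosen for mention after its values were seen. The remaining 24 genes had a promoter peak in every library of both lines. Among them were the receptor TNFRSF11A, the BAFF and APRIL receptors TNFRSF13B and TNFRSF17, the kinases CHUK and IKBKB, and the inhibitory deubiquitinase TNFAIP3. Receptors were thus found both with and without such a peak, and a link of its absence to the noncanonical route was not tested.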

How the data were processed

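Per the published methods and the submitters' processing notes, the authors mapped paired-end Omni-ATAC reads to hg38 with Bowtie2, dropped reads with several positions, kept 1 read per position, called peaks with MACS3 and kept a peak of a line when at least 3 libraries had it. Versions, the calling threshold and how boundaries were joined are not given in the sources used here. The deposited lists hold a position and 1 whole number per peak, which has no header. It is a number in another unit than reads, without normalization by the authors, and was read as support. Depth per sample is therefore unknown from these files. The study's supplement lists read totals per library, which differ between libraries and were not used as data here.

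Samples were grouped by line and condition from their titles, which gave 9 and 5 libraries behind 1 list each. Positions were read as BED and are written from 1. Promoters were 2500 bp around any start in GENCODE release 44 (the study used RefSeq), overlap needed 1 bp, and motifs were read from hg38 on both strands in the central 200 bp, the whole peak or 250 bp upstream. Shares have Wilson 95% intervals. The code was tested on simulated intervals with python 3.11.15, pandas 2.3.3 and scipy 1.17.1. No test was made, since no value for a single library was at hand.

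All 10 genes are named. Regions named were the widest own promoter peak, the widest constant distal peak and up to 2 line-only distal peaks with the highest support in each line, plus peaks that complete the account of a gene. The genes and lists were chosen with earlier results of these data known. Alternatives were other windows, promoter widths, overlaps, motif forms and filters on support and width.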

Additional observations from a re-analysis of the deposited data

How the results depend on the processing

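No paired analysis was possible because each line has 1 list pooled over its libraries, and for the same reason no library could be left out in turn. Of 60 alternative values of the main counts and shares, 35 stayed within the interval or within 1.5 times the count, and 25 did not. The 6 alternative density percentiles have no interval and are given below. The number of own promoter genes, 10 of 10 in both lines, held under every setting tried.

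Smaller windows and filters lowered the counts by their construction: 96 peaks in MM.1S and 91 in RPMI8226 with 50 kb on each side, 32 and 28 in the gene bodies alone, 95 in MM.1S with every library, and 90 and 87 with at least the median width. The distal share rose to 53.6% and 54.5% with promoters of 1000 bp (lists 69.2% and 72.6%) and to 51% and 50.3% with protein-coding starts only (lists 69.9% and 72.8%), and was 30% in MM.1S for wide peaks (list 46.8%). It stayed below the list in each, for windows that hold gene starts by construction. The share called in all libraries was 81.1% in MM.1S and 89.7% in RPMI8226 for wide peaks (lists 78.6% and 86.1%), and 78.6% in RPMI8226 in gene bodies. The shared share was 58.9% and 61.4% with an overlap of at least 50% of both peaks (lists 51.8% and 47.2%), 83.2% and 88.3% for peaks in every library (lists 81.3% and 74.1%), and 92.9% in RPMI8226 in gene bodies. In MM.1S it was 75.6% against 75.7% for wide peaks, so the gap to the list there was not seen among wide peaks.

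The kappa B share of distal peaks in MM.1S was 15.4% in gene bodies, where 2 of 13 held one, 15.8% over whole peaks and 0% with the stricter form. The median density percentile was 71.5 and 74.2 with 50 kb, 69.8 and 67.2 with peaks in every library, and 71 and 66.4 among genes of the same chromosome. Some settings were chosen after seeing the data. The stricter form left 5 genes with an upstream match, and a window of 100 bp upstream left 6. With only peaks in every library the TRAF3 stretch was 251 kb and held 4 MM.1S peaks. The lists hold no read counts, so signal at a peak could not be weighed. Support may also depend on the depth of each library, and the read totals in the study's supplement were not used here.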

Other observations

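Among neighbours of the 10 genes, some promoter peaks were in 1 line only. They were picked after their values were seen. NOD2, a sensor of bacterial cell walls 45.4 kb upstream of CYLD, had promoter peaks in both lines (753 bp and support 9 in MM.1S, 353 bp and support 5 in RPMI8226) and a further one of 463 bp in all 9 libraries in MM.1S. At EHBP1L1, downstream of RELA, MM.1S had promoter peaks of 1152, 725 and 1246 bp with support 9. Each of them was shared with a RPMI8226 peak of support 5. RPMI8226 had further promoter peaks there of 727 and 834 bp in all 5 libraries that MM.1S lacked. The peaks at APOE, 97.5 kb upstream of RELB, had support 8, 4 and 6 in MM.1S, and 1 of them was shared, with support 4 in RPMI8226.

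A long stretch without RPMI8226 peaks, of 352.6 kb, ended at the distal peak 48.7 kb upstream of the BIRC3 start. It lay mostly outside the BIRC3 window and was picked after its values were seen. MM.1S had 4 peaks wholly in the stretch, 3 of them in all 9 libraries, and none of these lay in the BIRC3 window. As many were found in 1.11% of RPMI8226 stretches.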
